A study of Mus musculus with 11 samples.

Results

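The comparison was between gastrocnemius muscle of mice that lose ZEB1 in their muscle fibres and muscle of mice of the same line that keep it. It took 5 of the 11 libraries of the study, chosen by their labels alone: 3 knockout libraries, numbered 1 to 3, and 2 control libraries, numbered 2 and 3. The controls carried floxed Zeb1 alleles (ZEB1 flx/flx) and the knockouts the same alleles with HSACre, a Cre recombinase under the human skeletal actin promoter, which is active in muscle fibres and not in the other cells of the tissue. Every mouse had been fasted for 36 h, a standard way to make muscle waste, so the controls were fasted too and no fed muscle was sequenced. Each library was poly(A)-selected RNA of whole muscle pooled from 2 mice, and ages and sexes are not stated in the labels. The study also held 3 floxed controls and 3 knockouts of ZEB2, the related factor, under the same Cre and the same fast, which are used below only to place the ZEB1 values. No group carried HSACre without floxed alleles, so loss of ZEB1 and presence of Cre cannot be told apart in these 5 libraries.

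ZEB1 is a transcription factor with a cluster of zinc fingers near each end of the protein. It binds the E-box sequence CACCTG, which reads CAGGTG on the other strand, and there it mostly represses transcription by recruiting the CtBP corepressors. It is best known for silencing genes of epithelial junctions and polarity during the change of epithelial cells into mesenchymal cells. Skeletal muscle is a mesenchymal tissue in which such genes are normally low, and ZEB1 in muscle is known to compete with myogenic activators for E-boxes.

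The libraries held 27.3 M to 33.3 M counts, and 24658 of the 55385 genes in the table had at least 1 count in these 5 libraries. Of these, 14759 had enough counts to be tested, and they held 99.9% of all counts. Levels are given as CPM, the counts of a gene as a rate of its library's total (counts per 1 M) after TMM scaling, which aligns the bulk of genes between libraries. Differences are log2 fold changes (knockout minus control) with their standard error (SE) from an edgeR quasi-likelihood fit of the 5 libraries. CPM values are not divided by gene length and are compared only between libraries for the same gene. Nothing in the labels says more about the separate pools than their numbers, so the tests measure the spread between pools.

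Zeb1 itself was lower in every knockout library. Zeb1 (ENSMUSG00000024238.15) stood at 42.1 and 53.9 CPM in the 2 controls and at 29.9, 29.5 and 31.5 CPM in the 3 knockouts. The groups did not overlap, and the knockouts lay close together. With a log2 fold change of -0.66 (SE 0.17) the gene missed the threshold in edgeR's quasi-likelihood test (Benjamini-Hochberg adjusted p = 1.00). The 3 values were also below those of the 6 libraries of the ZEB2 line, where Zeb1 ran from 43.7 to 52.1 CPM in controls and from 60.2 to 76.0 CPM in knockouts. The remaining Zeb1 counts came from whole muscle, which also holds vessels, connective tissue and nerve. In bulk RNA of this kind fewer cells of a type and less RNA per cell cannot be told apart, and the counts also take in any Zeb1 exons that Cre does not remove.

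Zeb2, the paralogue, stood at 21.3 and 19.7 CPM in controls and at 23.0, 20.4 and 21.5 CPM in knockouts (log2 fold change 0.08, SE 0.16). The CtBP corepressor genes were likewise overlapping: Ctbp1 lay between 89.7 and 110 CPM and Ctbp2 between 8.06 and 9.79 CPM over the 5 libraries. Of the 9 genes for ZEB, Snail and Twist repressors and CtBP, the one that stood apart upward was Snai3, a Snail family member, at 9.56 and 6.83 CPM in controls against 55.4, 14.5 and 29.6 CPM in knockouts (log2 fold change 2.01, SE 0.56). Its knockout values did not overlap the controls but differed widely among themselves.

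The markers of the labelled tissue were abundant in every library. Acta1, skeletal actin, took 23900 to 26661 CPM and Ckm, muscle creatine kinase, 13787 to 17828 CPM, with knockouts and controls overlapping. Over 13 genes that define skeletal muscle the median log2 fold change was 0.06, beside 0.01 over all genes tested.

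The spread between libraries of a group was as wide as the gaps between the groups. For 10440 genes (70.7%) the difference between the 2 controls was larger than the difference between the group means. The median absolute difference was 0.35 log2 units between the controls and 0.16 between knockouts and controls. Between the controls 1600 genes were more than 1 log2 unit apart, and between the group means 266 were. A difference of means averages over libraries and is smaller for that alone, and the single pairs of libraries show both ends. Both the most and the least alike pair crossed the groups. Control 2 and knockout 2 correlated at 0.986 across genes, with 509 genes over 1 log2 unit apart, and control 2 and knockout 1 at 0.960, with 2099. Control 2 and control 3 correlated at 0.962, and knockout 1 and knockout 2 at 0.966.

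A principal component analysis of the 5 libraries placed control 2 (-46.7) and knockout 2 (-35.4) at one end of the first component, which took 45.7% of the variance. Control 3 (27.3), knockout 1 (36.3) and knockout 3 (18.6) were at the other end. The sexes of the pools did not follow this split or the groups. Xist, the RNA of the inactive X chromosome, and the Y-linked Ddx3y showed control 2 and knockouts 1 and 2 with female RNA only, knockout 3 with male RNA, and control 3 with both. Ddx3y was at 118 CPM in control 3 and 127 CPM in knockout 3, with 0 counts in the other 3 libraries.

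Many genes of the fasting response carried the gap between the controls. Trim63, the muscle ubiquitin ligase MuRF1, stood at 786 CPM in control 2 and 5010 CPM in control 3, and at 4968, 957 and 2954 CPM in the knockouts. Knockout 2 thus lay beside control 2, and knockout 1 beside control 3. The metallothionein Mt2 ran from 9.90 to 146 CPM between the controls and stood at 212, 12.2 and 46.3 CPM in knockouts. The zinc transporter Slc39a14 was at 9.60 and 239 CPM in controls and at 94.5, 11.8 and 47.9 CPM in knockouts. The fatty acid desaturase Scd1 went the other way, at 283 and 79.2 CPM in controls and at 100, 235 and 51.5 CPM in knockouts. For these genes the order of libraries cut across the genotype.

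**Figure D1:**
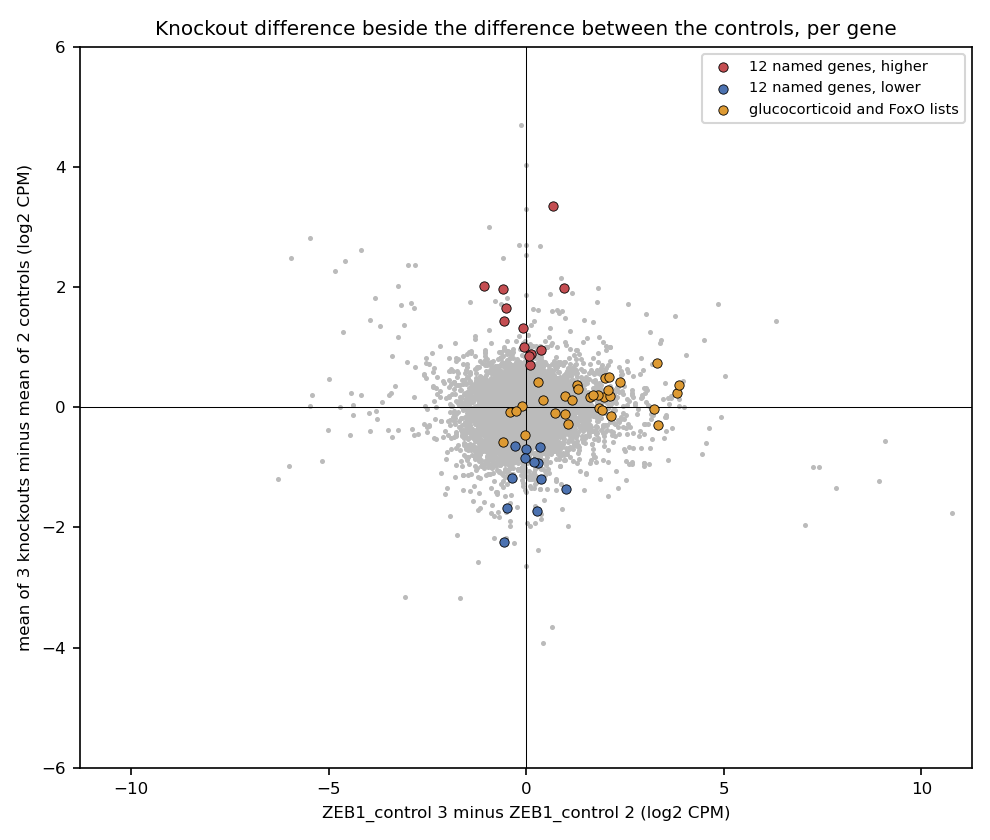
Each point is 1 of the 14759 genes tested, with the difference between the 2 controls on the horizontal axis and the difference between group means on the vertical axis, both in log2 CPM. The glucocorticoid and FoxO genes spread far along the horizontal axis and lie on both sides of 0 on the vertical axis. Of them, Sesn3 is at -0.57 and Pdk4 at 0.43 on the vertical axis. The 12 named genes in each direction were chosen for their separation and so lie apart from 0 on that axis. Among these Tmem184a, Actc1 and Gnmt also differ by about 1 log2 unit between the controls.

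Against this spread no gene passed the test. Of 14759 genes, 0 (0%) had an adjusted p under 0.05 in the edgeR quasi-likelihood fit with Benjamini-Hochberg adjustment, and the smallest adjusted p was 1.00. At an unadjusted p under 0.05 there were 248 genes (1.68%), of which 108 (0.732%) were higher and 140 (0.949%) lower in knockouts. Limma-voom also called 0 genes, with 245 at an unadjusted p under 0.05. DESeq2 called 14 (0.0949%), 10 higher and 4 lower. Among the 14 were the processed pseudogenes Gm12191, Gm5898, Rpl30-ps9, Gm10359 and Gm13394 and the long non-coding RNA Foxo6os, named after their values were seen. Of the 4 lower calls only Mss51 was protein-coding. A fit of all 11 libraries called 0, with 499 of 15416 genes (3.24%) at an unadjusted p under 0.05. In 1118 genes (7.58%) every knockout lay above both controls, and in 937 (6.35%) every knockout lay below both. The genes described next were chosen by the smallest p among those so separated, so their separation is a description and supports nothing by itself.

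The 12 genes that led the higher side were mostly at a few CPM in controls, and 4 of them are on the list of epithelial genes described below. They were Cdc42bpg, Klc3, Noct, Gnmt, Spint2, Ppp1r3c, Vamp8, Elmo3, Hpn, Marveld2, Tmem184a and Cdkl2, with log2 fold changes from 0.71 to 3.97. None passed the edgeR test over all genes. DESeq2 called 6 of them: Cdc42bpg, Klc3, Noct, Gnmt, Spint2 and Ppp1r3c.

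Cdc42bpg, on chromosome 19 (GRCm38, 6306456 to 6325652, plus strand), encodes MRCKγ, a protein kinase activated by the GTPase Cdc42. It stood at 6.48 and 6.16 CPM in controls and at 16.0, 17.5 and 14.3 CPM in knockouts. Both groups were tight, and the gap between them was far wider than the spread within either. Its log2 fold change of 1.33 (SE 0.18) had the smallest p of all genes (0.000233 unadjusted). DESeq2 gave an adjusted p of 0.000254. In the ZEB2 line Cdc42bpg ran from 5.67 to 6.86 CPM in controls and from 4.07 to 5.11 CPM in knockouts, so the ZEB1 knockouts were above the 8 other libraries. The difference between the ZEB1 effect and the ZEB2 effect was 1.75 log2 units (SE 0.23), and it did not pass (edgeR, Benjamini-Hochberg adjusted p = 0.139).

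Spint2, on chromosome 7 (29256323 to 29281912, minus strand), encodes a membrane inhibitor of serine proteases that epithelia use to restrain matriptase-like enzymes. Its levels were 2.18 and 1.51 CPM in controls and at 4.11, 6.76 and 7.27 CPM in knockouts. The lowest knockout was above the higher control, with knockouts 2 and 3 further up than knockout 1. In DESeq2 its adjusted p was 0.0311 (edgeR log2 fold change 1.71, SE 0.36). The ZEB2 line stood between 1.46 and 2.32 CPM in all 6 libraries, beside which the ZEB1 knockouts were higher, and the difference of effects was 2.17 (SE 0.40, edgeR Benjamini-Hochberg adjusted p = 0.448). Hpn, which encodes hepsin, a membrane serine protease, was at 3.83 and 4.17 CPM in controls and at 7.47, 6.83 and 8.17 CPM in knockouts (log2 fold change 0.91, SE 0.21). The knockouts kept clear of the controls and of the 2.79 to 3.68 CPM of the ZEB2 line.

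Klc3, on chromosome 7 (19394437 to 19404104, minus strand), encodes a kinesin light chain, part of a motor that carries cargo along microtubules. It had 2 and 4 counts in controls and 46, 39 and 76 counts in knockouts, or 0.067 and 0.15 CPM against 1.58, 1.30 and 2.28 CPM. The gene was close to absent in both controls and present in all 3 knockouts. The fitted log2 fold change of 3.97 (SE 0.56) rests on so few control counts that it depends on the fit's handling of low counts. The 6 libraries of the ZEB2 line also stayed low, between 0.030 and 0.19 CPM. With the 5 floxed controls of both lines taken as 1 group, 3 of 14844 genes (0.0202%) passed the edgeR test: Klc3 (log2 fold change 3.99), the processed pseudogene Gm5898 (3.23) and Cdc42bpg (1.31), each with a Benjamini-Hochberg adjusted p of 0.0127. Gm5898, whose reads may be shared with its parent gene, lies outside the naming rule and was named after its values were seen. That fit takes mice of another line as controls.

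The next genes were also at a few CPM or less in controls. Marveld2 encodes tricellulin, which seals tight junctions where several cells meet, and stood at 0.70 and 0.44 CPM in controls and at 2.84, 3.40 and 1.41 CPM in knockouts (log2 fold change 2.14, SE 0.50). Elmo3, which encodes an adaptor for Rac activation, stood at 1.61 and 1.07 CPM against 2.88, 4.50 and 3.88 CPM (log2 fold change 1.48, SE 0.34). Tmem184a, which encodes a transmembrane protein, stood at 0.77 and 0.33 CPM against 1.68, 3.10 and 2.31 CPM (log2 fold change 2.08, SE 0.49). In these genes every knockout was above both controls, and the knockouts spread widely among themselves. Cdkl2, which encodes a cyclin-dependent-kinase-like kinase, was tighter, at 4.06 and 4.28 CPM against 6.95, 7.96 and 7.96 CPM (log2 fold change 0.87, SE 0.21).

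The remaining leaders encode enzymes, an enzyme's targeting subunit and a vesicle protein. Noct, nocturnin, a circadian phosphatase of NADP(H), stood at 7.08 and 6.86 CPM in controls and at 13.6, 14.9 and 13.5 CPM in knockouts (log2 fold change 1.00, SE 0.17). The values were close within each group. In the ZEB2 line it ran from 7.36 to 10.9 CPM in controls and from 6.17 to 6.83 CPM in knockouts, and the difference of effects was 1.49 (SE 0.24, edgeR Benjamini-Hochberg adjusted p = 0.239). Ppp1r3c encodes a subunit that targets a phosphatase to glycogen and favours glycogen synthesis. It stood at 104 and 135 CPM in controls and at 246, 231 and 212 CPM in knockouts (log2 fold change 0.94, SE 0.20). Its levels in ZEB2 controls ran from 61.5 to 266 CPM, so the ZEB1 knockouts did not stand above all controls of the study. Gnmt, glycine N-methyltransferase, was at 2.35 and 4.61 CPM against 17.5, 9.56 and 13.7 CPM (log2 fold change 1.97, SE 0.39). Vamp8, a SNARE of vesicle fusion, was at 23.9 and 25.5 CPM against 42.0, 40.4 and 38.5 CPM (0.71, SE 0.16). Both were higher in ZEB2 knockouts too (Gnmt 0.93, SE 0.44, and Vamp8 0.38, SE 0.13). There Gnmt ran from 2.29 to 7.95 CPM in controls and from 6.72 to 9.82 CPM in knockouts. Vamp8 ran from 21.7 to 27.7 CPM and from 28.7 to 32.0 CPM. The differences of effects were 1.04 (SE 0.67) for Gnmt and 0.32 (SE 0.19) for Vamp8.

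Set beside all 8 other libraries of the study, the ZEB1 knockouts were highest for 10 of these 12 genes, where 133 of all genes tested (0.901%) were so placed. They were above all 5 floxed controls for 11 of the 12, against 331 genes (2.24%). The exceptions were Ppp1r3c for both counts and Gnmt for the first. The effect of ZEB2 knockout was in the lower direction for 10 of the 12. The difference of effects had an unadjusted p under 0.05 for 10 of the 12 and for 1427 of 15416 genes (9.26%), and 0 genes (0%) passed it after Benjamini-Hochberg adjustment in the 11-library edgeR fit. These shares use the same ZEB1 libraries by which the 12 genes were chosen, so nothing is read from them.

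**Figure D2:**
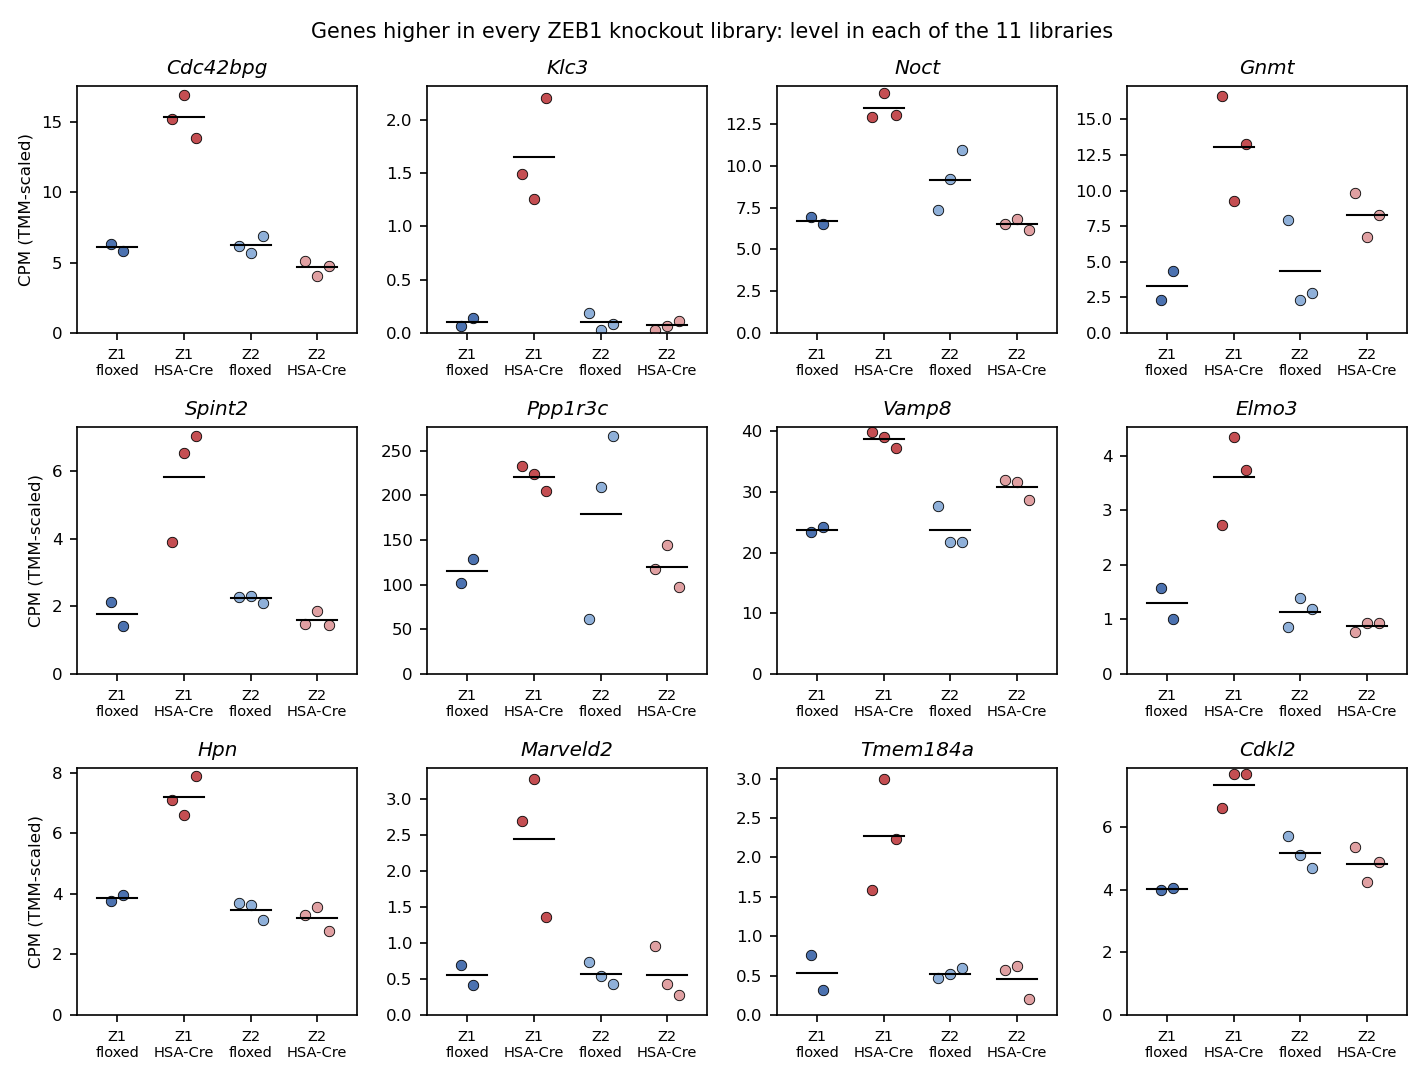
Level of the 12 leading genes on the higher side in each of the 11 libraries, in TMM-scaled CPM on axes that start at 0. Each point is 1 library, the bars are group means, and Z1 and Z2 mark the ZEB1 and ZEB2 lines. The 3 ZEB1 knockouts sit above the 8 other libraries in each panel except those of Ppp1r3c and Gnmt.

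Epithelial genes as a group were described with a list of 42 genes of junctions, polarity, keratins and their regulators. The list was drawn up with earlier results of these data known, and holds Cdc42bpg and Spint2 for that reason. Only 17 of the 42 had enough counts to be tested. A member could pass the count filter on its knockout libraries alone, as Crb3 did, which favours the higher side. Of the 17, 12 were higher and 5 lower in knockouts, with a median log2 fold change of 0.80 beside 0.01 over all genes tested. An unadjusted p under 0.05 was reached by 9 on the higher side and 1 on the lower, where all genes gave 0.732% and 0.949%, and 0 passed after Benjamini-Hochberg adjustment in edgeR. Each of the 6 pairings of a knockout library with a control library gave a positive median over the 17, from 0.38 to 0.82. The median between control 3 and control 2 was -0.26. With the list and the filter as they are, these values are a description and support nothing by themselves.

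Crb3, a Crumbs polarity protein of the apical membrane, was among the members that differed most. It had 4 and 1 counts in controls and 50, 23 and 33 counts in knockouts, or 0.13 and 0.037 CPM against 1.71, 0.77 and 0.99 CPM. As with Klc3, both controls were close to none, and so was the ZEB2 line, at 0.028 to 0.32 CPM. DESeq2 gave Crb3 an adjusted p of 0.0359. Krt18, a keratin of simple epithelia, stood at 0.27 and 0.44 CPM in controls and at 1.88, 0.77 and 2.10 CPM in knockouts (log2 fold change 2.15, SE 0.59). It was higher in the ZEB2 line too, at 1.14, 0.19 and 0.27 CPM in controls and at 1.91, 2.05 and 2.39 CPM in knockouts, and the difference of effects was 0.17 (SE 0.89). Elf3, an epithelial transcription factor, stood at 0.40 and 0.26 CPM against 0.48, 0.97 and 1.89 CPM, with knockout 1 barely above control 2.

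Polarity genes at higher levels differed by less. Llgl2, a Scribble-complex partner, stood at 8.56 and 7.82 CPM in controls and at 12.1, 10.2 and 15.2 CPM in knockouts (log2 fold change 0.61, SE 0.22). Patj, a scaffold of the Crumbs complex, stood at 2.58 and 2.14 CPM against 3.97, 5.36 and 3.00 CPM (0.80, SE 0.33). In both genes the lowest knockout lay just above the higher control.

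The classical epithelial genes were low in every library. Cdh1, E-cadherin, the best-known target of ZEB1, stood at 0.70 and 0.70 CPM in controls and at 0.99, 0.67 and 0.24 CPM in knockouts (log2 fold change -0.16, SE 0.61). The knockouts lay on both sides of the controls, and without knockout 3 the value was 0.22. Krt19 was lower in knockouts, at 1.14 and 0.59 CPM against 0.34, 0.40 and 0.39 CPM (log2 fold change -1.19, SE 0.46), as was Lamb3, a laminin chain, at 3.83 and 2.29 CPM against 1.99, 2.00 and 1.44 CPM. The 25 members below the test's count minimum, among them Epcam, Esrp1, Grhl2, Ovol1, Ocln and the claudins Cldn3, Cldn4 and Cldn7, never exceeded 0.54 CPM in any of the 5 libraries, and 4 of them had no count in any. Such low levels follow from the count minimum that left these members out, so nothing is read from them.

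The promoters of the leading genes were read for the ZEB1 E-box, to describe whether the factor's sequence is present. The windows were 300 bases long, 250 before and 50 after each transcript start in RefSeq (GRCm38.p6), and were searched for CACCTG and CAGGTG, which are reverse complements, so both strands were covered. Over all 32851 windows 20.2% held at least 1 match, and over the 10867 tested genes with a window 20.6% held one in any of their windows. Of the 12 leading genes on the higher side 10 had a window, and Cdc42bpg and Elmo3 had none and were not read. A match was held by 8 of the 10 (Klc3, Noct, Gnmt, Spint2, Hpn, Marveld2, Tmem184a and Cdkl2), and Vamp8 and Ppp1r3c had no match. More than 1 match was held by 4 of the 10, beside 289 of the 10867 tested genes (2.66%). Of the 12 on the lower side 8 had a window and 1 (Thbs4) held a match. Of the epithelial list 21 of 25 members with a window held one, among them 10 of the 11 tested. This list shares genes with the 12 on the higher side, Spint2 among them, so the counts are not separate. The list and the genes were not chosen by sequence, but epithelial genes are known for this motif. A match is a description of the sequence and shows neither binding nor cause.

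The 5 windows below were picked after the search, from windows with a match, to show how matches lie. The windows of Vamp8 and Ppp1r3c, without one, are not shown. Capitals mark CACCTG or CAGGTG, and each sequence runs 5′ to 3′ on the gene's own strand. Coordinates are chr7:29281928-29282227 (minus strand) for Spint2, chr17:57061951-57062250 (plus strand) for Crb3, chr7:19404055-19404354 (minus strand) for Klc3, chr5:139814234-139814533 (minus strand) for Tmem184a and chr7:31115277-31115576 (minus strand) for Hpn.
Spint2: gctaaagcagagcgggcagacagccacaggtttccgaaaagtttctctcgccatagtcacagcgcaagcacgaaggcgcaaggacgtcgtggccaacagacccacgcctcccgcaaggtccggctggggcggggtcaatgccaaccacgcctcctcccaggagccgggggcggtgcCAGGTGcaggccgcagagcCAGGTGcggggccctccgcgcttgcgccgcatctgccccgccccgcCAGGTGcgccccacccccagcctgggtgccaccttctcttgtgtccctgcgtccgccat
Crb3: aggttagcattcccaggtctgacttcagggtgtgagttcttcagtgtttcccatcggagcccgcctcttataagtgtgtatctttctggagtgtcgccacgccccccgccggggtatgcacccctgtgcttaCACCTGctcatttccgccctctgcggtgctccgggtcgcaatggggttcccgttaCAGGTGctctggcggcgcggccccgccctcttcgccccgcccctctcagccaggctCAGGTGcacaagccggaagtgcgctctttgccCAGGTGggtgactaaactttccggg
Klc3: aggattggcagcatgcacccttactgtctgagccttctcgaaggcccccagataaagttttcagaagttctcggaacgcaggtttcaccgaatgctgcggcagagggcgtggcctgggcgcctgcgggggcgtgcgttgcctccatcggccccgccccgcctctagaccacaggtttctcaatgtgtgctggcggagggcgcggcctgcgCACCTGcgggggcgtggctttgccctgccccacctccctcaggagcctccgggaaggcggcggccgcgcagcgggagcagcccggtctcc
Tmem184a: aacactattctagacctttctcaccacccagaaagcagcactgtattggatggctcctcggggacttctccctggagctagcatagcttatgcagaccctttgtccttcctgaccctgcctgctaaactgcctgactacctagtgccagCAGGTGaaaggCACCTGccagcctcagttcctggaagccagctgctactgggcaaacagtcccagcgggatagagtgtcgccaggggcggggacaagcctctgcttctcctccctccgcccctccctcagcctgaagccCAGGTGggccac
Hpn: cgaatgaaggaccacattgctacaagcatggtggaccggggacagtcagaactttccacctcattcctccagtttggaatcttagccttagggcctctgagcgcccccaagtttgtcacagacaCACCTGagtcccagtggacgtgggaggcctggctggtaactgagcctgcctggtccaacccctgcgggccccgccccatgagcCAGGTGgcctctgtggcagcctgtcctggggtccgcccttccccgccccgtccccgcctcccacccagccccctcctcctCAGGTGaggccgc

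In Spint2 the 3 matches began 74, 55 and 9 bases before the start, and in Klc3 the single match began 40 bases before it. Crb3 held 4 matches, 118, 63 and 7 bases before the start and 26 bases past the start. Hpn held 1 match 126 and 1 match 43 bases before the start, and 1 past the start. Tmem184a had a pair of matches, in opposite orientation, 101 and 90 bases before its start, and 1 further match past it.

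The 12 leading genes on the lower side included genes of tendon and matrix, such as Thbs4 and Fmod, and genes of other kinds. They were Thbs4, Fmod, Adamts8, Mss51, Zeb1, Adamtsl2, Actc1, Nbl1, Mgp, Pmp2, Gpc3 and Shisa3, with log2 fold changes from -0.64 to -2.09, and none passed the edgeR test. In 10 of the 12 the ZEB1 knockouts lay below all 5 floxed controls (2.03% of all genes), and in 4 of the 12 they lay below the 8 other libraries (0.312%). As on the higher side, the ZEB1 libraries in these shares are those by which the 12 were chosen, so nothing is read from the shares. The effect of ZEB2 knockout was also in the lower direction for 11 of the 12, the exception being Zeb1. Over the list of tendon markers the median was -0.86 in the ZEB1 line and -1.66 in the ZEB2 line, over matrix genes -0.44 and -0.83, and over epithelial genes 0.80 and -0.42. These comparisons share no library, but both medians of a list run over members that passed the count filter in the 5 ZEB1-line libraries. The lists were also drawn up with earlier results of these data known. The differences between the lists' medians were not tested, and nothing is read from them.

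Thbs4, thrombospondin 4, a glycoprotein of tendon and muscle matrix, stood at 47.4 and 58.4 CPM in controls and at 27.5, 23.4 and 32.7 CPM in knockouts. Every knockout was well below both controls (log2 fold change -0.92, SE 0.20), and the ZEB2 line gave 41.5 to 63.8 CPM in controls and at 32.3 to 36.8 CPM in knockouts. Fmod, fibromodulin, which organises collagen fibrils in tendon, stood at 49.7 and 38.6 CPM against 14.3, 24.7 and 20.5 CPM (log2 fold change -1.16, SE 0.26). It ran from 39.2 to 82.7 CPM in ZEB2 controls and from 19.1 to 25.1 CPM in ZEB2 knockouts, so both lines showed the same order. The difference of effects was 0.32 (SE 0.41) for Fmod and -0.42 (SE 0.28) for Thbs4. Mgp, matrix Gla protein, an inhibitor of calcification, was at 41.2 and 33.6 CPM in controls and at 26.0, 23.5 and 22.5 CPM in knockouts, and Adamts8, a secreted protease, at 4.40 and 3.14 CPM against 0.75, 1.67 and 1.08 CPM.

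Like every list here, the tendon list was drawn up with earlier results of these data known. It also shares Thbs4 with the matrix list, so the shares of these lists are a description only. All 13 tendon markers were tested and all 13 were lower. An unadjusted p under 0.05 was reached by 6 of them (0.949% of all genes), and 8 had every knockout below both controls (6.35%). Their median log2 fold change was -0.86, beside 0.01 over all genes, and the 6 pairings of knockout and control libraries gave medians from -1.45 to -0.35. The difference between control 3 and control 2 was itself -0.43 at the median. Kera, keratocan, stood at 2.52 and 1.03 CPM in controls and at 0.21, 0.67 and 0.63 CPM in knockouts. Comp, cartilage oligomeric matrix protein, was at 3.49 and 2.32 CPM against 1.54, 1.66 and 1.59 CPM, and Cilp2 at 2.42 and 1.44 CPM against 0.24, 0.70 and 0.75 CPM. The defining tendon factors Scx and Mkx and the tendon membrane protein Tnmd were low and overlapped, with Scx at 3.36 and 1.33 CPM in controls and at 2.09, 3.10 and 1.05 CPM in knockouts. The summed level of the list was 152 and 144 CPM in controls and at 58.8, 96.8 and 77.4 CPM in knockouts, so the groups were apart, and the part that the amount of tendon in each piece of muscle has in this was not tested.

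Matrix genes followed at smaller size. Of 35 extracellular matrix genes 34 were lower and 1 (Eln, elastin) higher, 9 of the lower ones at an unadjusted p under 0.05 (0.949% of all genes) and 14 with every knockout below both controls (6.35%). The median was -0.44, and the 6 pairings ran from -0.79 to -0.04. The median between the controls was -0.28, and without knockout 2 the value was -0.70. Col1a1, a chain of the main fibrillar collagen, stood at 69.6 and 41.6 CPM in controls and at 20.9, 42.2 and 26.2 CPM in knockouts, so knockout 2 lay within the control range. Postn, periostin, was at 16.0 and 8.45 CPM against 4.55, 7.19 and 7.87 CPM, Fbln1, fibulin 1, at 7.18 and 6.23 CPM against 4.56, 4.39 and 3.03 CPM, and Bgn, biglycan, at 86.3 and 69.3 CPM against 58.1, 59.4 and 51.1 CPM. In these genes the groups did not overlap. The basement membrane collagens Col4a1 and Col4a2 overlapped, at 140 to 235 CPM and 95.3 to 151 CPM.

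Markers of fibroblasts and fibro-adipogenic progenitors, the cells that make most of this matrix, were lower in 18 of 19 genes, with a median of -0.40 and pairings from -0.74 to 0.06. Their summed level was 3065 and 3130 CPM in controls and at 2426, 2717 and 2003 CPM in knockouts, and none of the 19 was at 0. Pdgfra, the receptor that defines these cells, overlapped, at 51.9 and 43.0 CPM against 41.0, 44.8 and 31.0 CPM (log2 fold change -0.29, SE 0.21). Dcn, decorin, did not, at 632 and 701 CPM against 538, 536 and 438 CPM (log2 fold change -0.40, SE 0.18). The part of cell number in the matrix values was not tested.

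**Figure D3:**
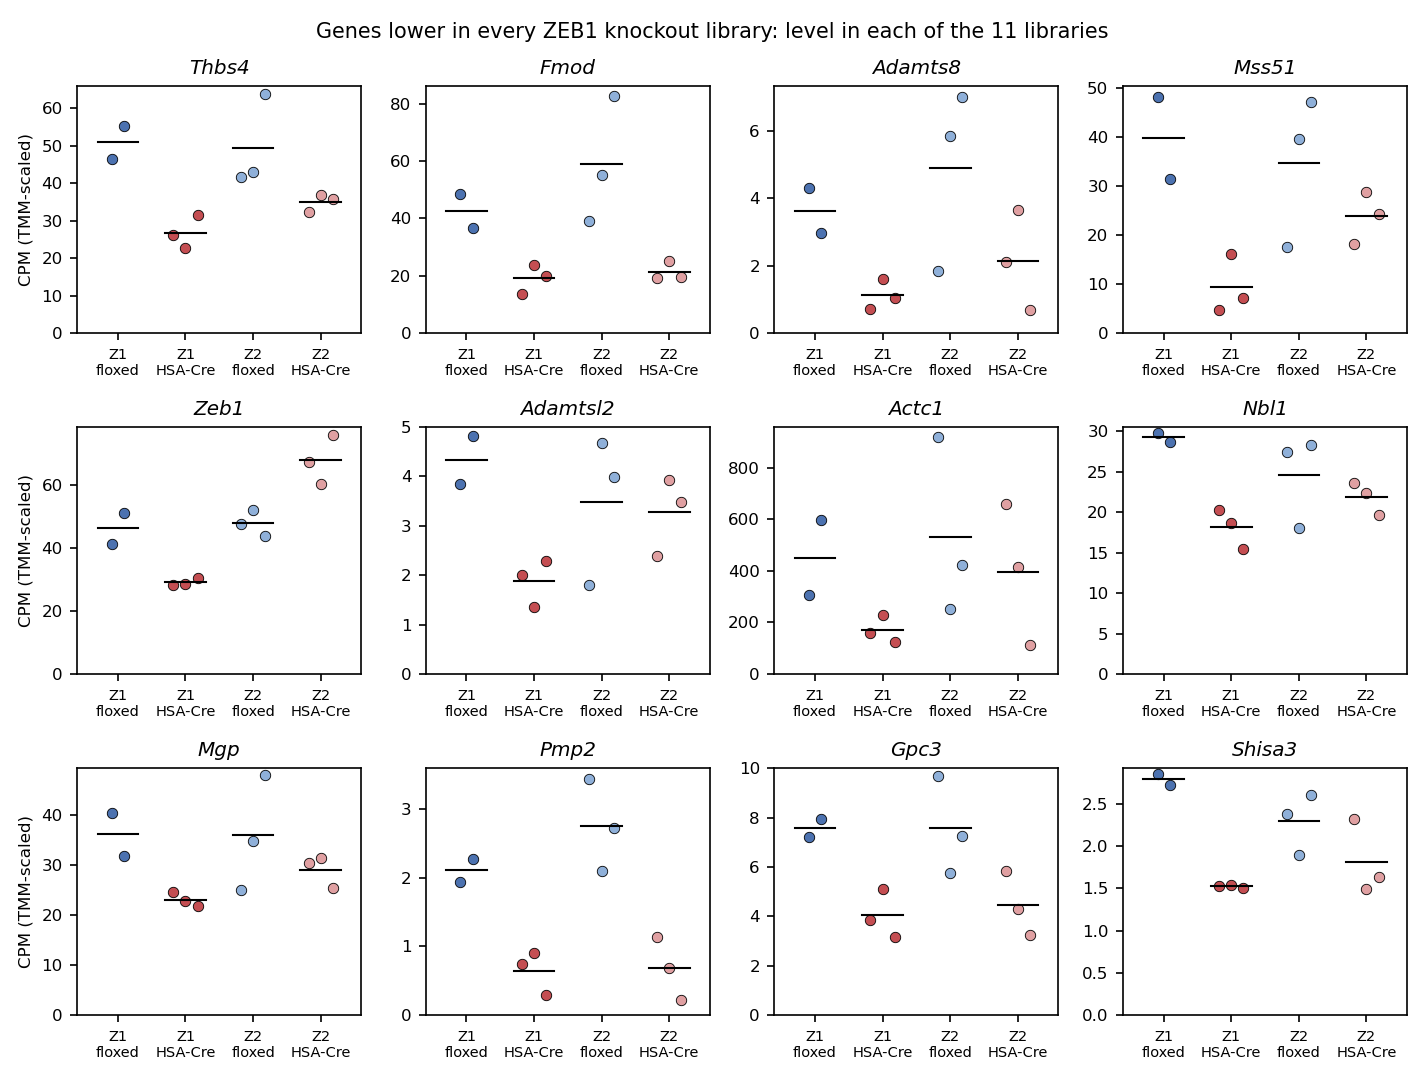
Level of the 12 leading genes on the lower side in each of the 11 libraries, in TMM-scaled CPM on axes that start at 0. Each point is 1 library and the bars are group means. Zeb1 is lower in the ZEB1 knockouts and higher in the ZEB2 knockouts, and Thbs4 and Fmod are lower in the knockouts of both lines.

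Other cell types showed smaller or overlapping values. Macrophage markers were lower in 16 of 20 genes (median -0.27), with summed levels of 366 and 341 CPM in controls and at 309, 364 and 211 CPM in knockouts, which overlapped. Without knockout 3 the macrophage median was -0.06, and without knockout 2 it was -0.48. Schwann cell and myelin genes were lower in 15 of 15 (median -0.26), with sums of 264 and 434 CPM against 363, 295 and 110 CPM. Knockout 3 was lowest, and without it the median was -0.01. Adipocyte markers had a median of -0.21, with sums of 4368 and 2504 CPM against 3158, 4135 and 1638 CPM, and the median turned to 0.21 without control 2 and was -0.86 without knockout 2. Erythroid markers had one of -0.19 (-0.41 without knockout 3), with sums of 1321 and 1470 CPM against 1118, 946 and 1434 CPM. Endothelial markers had a median of -0.07 over 18 genes, with Pecam1 between 108 and 130 CPM in all 5 libraries, and -0.12 without control 3. Smooth muscle and pericyte markers had a median of 0.04 over 12 genes and of -0.10 without knockout 1. Only 4 of 18 neutrophil and lymphocyte markers had enough counts, with a summed level of at most 7.33 CPM.

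Interferon response genes were lower in 27 of 29, with a median of -0.42. The controls differed by more than that, with a median of -0.90 between control 3 and control 2, and the value was 0.05 without control 2 and -0.81 without control 3. Ifit1, an antiviral RNA sensor, shows the pattern, at 6.91 CPM in control 2, 2.99 CPM in control 3 and 2.09, 2.86 and 2.37 CPM in knockouts. Control 2 was the high library, while control 3 was near the knockouts. Ifit2 was the member with closer controls, at 8.32 and 7.05 CPM against 5.14, 5.16 and 4.69 CPM (log2 fold change -0.62, SE 0.20).

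Among genes of the contractile apparatus, Myom2 was higher in every knockout, and Myh2 and Actc1 were lower in every knockout. Myom2, the M-protein that links thick filaments of fast fibres, was chosen after its values were seen. It stood at 1094 and 1063 CPM in controls and at 1865, 1601 and 1597 CPM in knockouts (log2 fold change 0.65, SE 0.16), above the 8 other libraries of the study. Myh2, the myosin heavy chain of type 2A fibres, stood at 2869 and 2160 CPM in controls and at 1401, 1712 and 1771 CPM in knockouts (log2 fold change -0.63, SE 0.20). In the ZEB2 line Myh2 ran from 2237 to 3469 CPM in controls and from 731 to 1290 CPM in knockouts. Actc1, the cardiac actin that muscle uses during development and regrowth, stood at 312 and 629 CPM against 167, 239 and 127 CPM (log2 fold change -1.41, SE 0.37), and its controls were far apart.

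Mss51, a muscle protein tied to mitochondrial metabolism, had the widest difference of the 12 genes on the lower side. It stood at 49.3 and 33.1 CPM in controls and at 5.04, 16.7 and 7.30 CPM in knockouts (log2 fold change -2.09, SE 0.49), and DESeq2 gave an adjusted p of 0.0458. Knockout 2 was the highest of the knockouts and still below both controls. The ZEB2 line overlapped, with 17.6 to 47.1 CPM in controls and at 18.3 to 28.8 CPM in knockouts.

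The main fast and slow myosins did not separate the groups. Myh4, the myosin of type 2B fibres, stood at 18858 and 28692 CPM in controls and at 33220, 29214 and 19566 CPM in knockouts. Myh1, of type 2X fibres, was at 4246 and 4668 CPM against 7811, 2881 and 2760 CPM. Myh7, of slow fibres, was at 597 and 300 CPM against 207, 475 and 339 CPM. Of 18 slow-fibre genes 14 were lower, with a median of -0.36, but the median between the controls was -0.56 and without control 2 the value turned to 0.09. Mb, myoglobin, was the abundant member that did not overlap, at 2952 and 2256 CPM against 1869, 1983 and 2151 CPM. Fast-fibre genes had a median of 0.05 over 18, which was -0.11 without knockout 2.

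Genes of fatty acid use were higher in 29 of 31, with a median of 0.34, of which 1 reached an unadjusted p under 0.05 (0.732% of all genes) and 6 had every knockout above both controls (7.58%). The pairings of libraries ran from -0.02 to 0.53, with both values for knockout 2 near 0. Without knockout 1 the median was 0.20. Cpt1b, the gate for fatty acids into mitochondria, stood at 291 and 250 CPM in controls and at 496, 288 and 380 CPM in knockouts, so knockout 2 was level with control 2. Ucp3, a mitochondrial carrier induced by fasting, was at 213 and 172 CPM against 225, 298 and 308 CPM (log2 fold change 0.52, SE 0.22). All 44 nuclear genes of oxidative phosphorylation had a positive value, at a median of 0.13, with 0 at an unadjusted p under 0.05. Their sum was 16386 and 15977 CPM in controls and at 20556, 16810 and 16425 CPM in knockouts, and without knockout 1 the median was 0.03.

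Knockout 1 stood apart in the regulators of these genes. Ppargc1a, PGC-1α, the coactivator of mitochondrial genes, stood at 24.0 and 27.6 CPM in controls and at 364, 25.3 and 36.5 CPM in knockouts. Knockouts 2 and 3 were close to the controls, so the log2 fold change of 2.46 (SE 1.19) belongs to 1 library. Nr4a3, an orphan receptor gene switched on early by muscle activity, was at 2.08 and 4.02 CPM against 29.7, 5.46 and 10.4 CPM (log2 fold change 2.32, SE 0.76), again highest in knockout 1. Perm1, a target of PGC-1α, was at 124 and 74.3 CPM against 213, 132 and 131 CPM. Of 20 regulators of this pathway 16 were higher, with a median of 0.13, and 1 (Perm1) lay above both controls in every knockout, near the 7.58% of all genes. The median was 0.05 without knockout 1 and 0.27 without knockout 2.

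Glycogen and glucose genes were higher in 20 of 24, with a median of 0.12 and all 6 pairings positive, from 0.04 to 0.26. Without knockout 2 the median was 0.05. Pdk2, a kinase that restrains pyruvate oxidation, stood at 406 and 366 CPM in controls and at 584, 496 and 455 CPM in knockouts. Pfkm, muscle phosphofructokinase, was at 2300 and 2075 CPM against 2853, 2988 and 2410 CPM. The groups did not overlap in either gene, and the nearest libraries were close. Cytosolic ribosomal protein genes were higher in 40 of 42 with a median of 0.10, 21 of them above both controls in every knockout (7.58% of all genes) and 0 at an unadjusted p under 0.05. Without knockout 2 the median was 0.054. Their sums were 11062 and 11635 CPM in controls and at 12224, 12084 and 11870 CPM in knockouts.

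The breakdown programme of fasting did not separate knockouts from controls. Of 25 atrophy ubiquitin ligases and partners 17 were higher, with a median of 0.06 that ran from -0.09 without control 2 to 0.28 without control 3, and 0 reached an unadjusted p under 0.05. For 21 of the 25 the difference between the controls was the larger. Fbxo32, atrogin-1, the other main ligase of wasting muscle, stood at 818 and 2837 CPM in controls and at 2591, 1215 and 2417 CPM in knockouts (log2 fold change 0.18, SE 0.55). The log2 fold change of Trim63, with the levels given above, was 0.03 (SE 0.86). The summed list gave 7268 and 16708 CPM in controls and at 17549, 8272 and 14780 CPM in knockouts. Asb2, a muscle ubiquitin ligase adaptor, was the member with the smallest p, at 442 and 311 CPM against 532, 582 and 471 CPM (log2 fold change 0.49, SE 0.22). For Asb2 the value was 0.23 without control 3 and 0.76 without control 2.

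Related programmes had the same form. The FoxO list, of the factors that switch on atrophy genes and their targets, had 8 of 16 higher and a median of -0.01, while the controls differed by 1.39 at the median. Foxo1 stood at 32.2 and 138 CPM in controls and at 157, 69.4 and 79.6 CPM in knockouts. Glucocorticoid response genes had 10 of 16 higher and a median of 0.05, with a median of 1.98 between the controls and the larger difference between controls in 16 of 16. Cebpd, a transcription factor that glucocorticoids induce, was at 25.2 and 255 CPM against 127, 41.3 and 53.5 CPM. These medians followed whichever control was used: without control 3 they were 0.82 (FoxO) and 1.12 (glucocorticoid), and without control 2 they were -0.42 and -0.60. Proteasome genes had a median of 0.07 with a difference of 0.89 between the controls, larger in 26 of 26, and autophagy and lysosome genes one of 0.04 with 0.47 between the controls. These 2 medians also turned sign with the control left out.

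**Figure D4:**
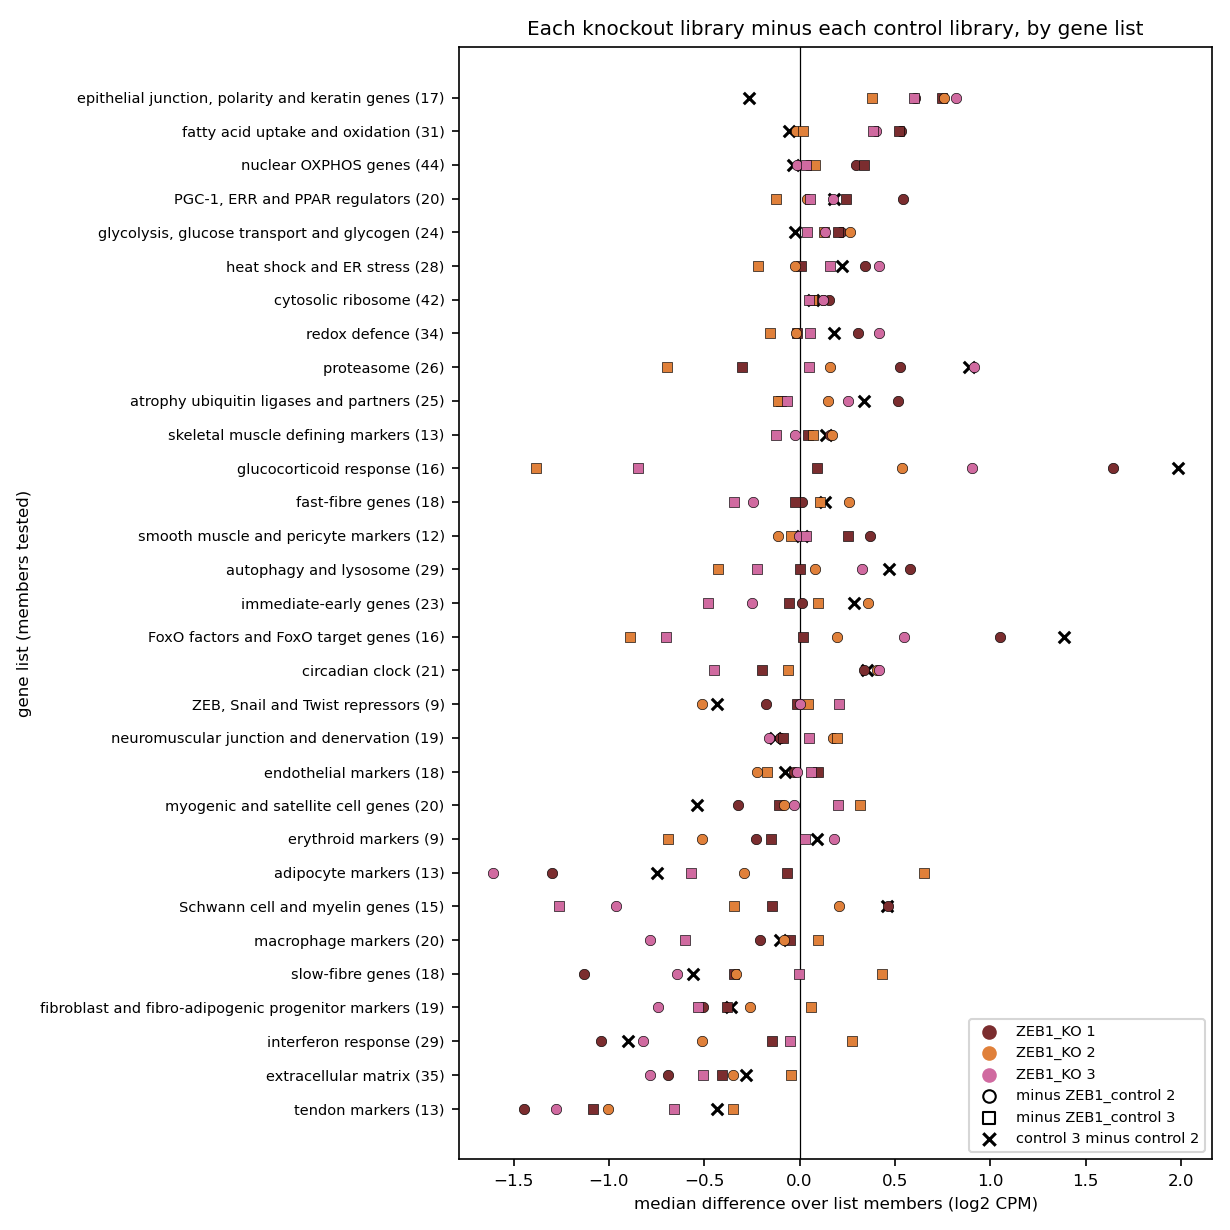
Median difference over the tested members of each gene list, in log2 CPM, for each of the 6 pairings of a knockout library (colour) with a control library (circle or square), beside the difference between the controls (cross). The 6 points lie above 0 for the epithelial list (0.38 to 0.82) and below 0 for tendon markers (-1.45 to -0.35), and they spread around 0 for the glucocorticoid, FoxO and proteasome lists, where the cross lies far from 0.

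The remaining lists had medians of about 0.10 or nearer to 0 and overlapping groups for most members. Leaving out 1 library turned the sign of the median of each list in this paragraph. Redox defence genes had 25 of 34 higher with a median of 0.10, heat shock and ER stress genes 19 of 28 higher with a median of 0.10, and immediate-early genes a median of 0.01 over 23. Circadian clock genes had a median of -0.01 over 21, of which Noct was the one that stood above both controls in every knockout. Neuromuscular junction and denervation genes had a median of -0.04 over 19. Dok7, an activator of the receptor kinase that clusters acetylcholine receptors, had the smallest p among them, at 10.7 and 10.3 CPM in controls and at 21.2, 11.4 and 22.9 CPM in knockouts (log2 fold change 0.82, SE 0.32). Knockout 2 was near the controls. Myogenic and satellite cell genes had a median of -0.10 over 20, and Fst, follistatin, an inhibitor of myostatin, was lower, at 10.6 and 10.4 CPM against 6.54, 8.39 and 6.04 CPM (log2 fold change -0.59, SE 0.21).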

How the data were processed

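RNA of 11 libraries of fasted gastrocnemius, each pooled from 2 mice, was sequenced after a stranded poly(A) preparation, per the labels' protocols. The values are estimated counts per gene, deposited as whole numbers without normalization. The submitters' processing notes name STAR, RSEM, DESeq2 and GRCm38 without versions. How strand was used in counting is not given in the sources used here, so counts of near-identical, overlapping or antisense genes are uncertain. Of 55385 identifiers, 55144 matched GENCODE M21 without version, which gave coordinates.

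The 5 libraries of the ZEB1 line were fitted in R 4.3.3 with edgeR 4.0.16: filterByExpr (minimum count 10, minimum total 15), TMM, a robust quasi-likelihood fit of 2 group means with 3 residual degrees of freedom, Benjamini-Hochberg adjustment over 14759 genes and a threshold of 0.05. The biological coefficient of variation was 0.28. SE is the size of the log2 fold change over the root of its F statistic. Separation was read from TMM-scaled CPM. Library pairings and list medians between libraries used log2 CPM with a prior count of 2. The difference of effects came from a fit of all 11 libraries, and levels in the ZEB2 line are scaled over those 11. DESeq2 1.42.0, limma 3.58.1 (voom), other scalings and filters, other control sets, a replicate block and leaving out each library were alternatives. The test was tried on simulated data. No pair of libraries agreed within counting noise, so each counted as 1 replicate.

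Named genes were Zeb1, Zeb2, Cdc42bpg and Spint2, the 12 protein-coding genes per direction with the smallest p (mean of at least 1 CPM, every knockout on one side of both controls, unnamed models passed over), the genes that differed most between the controls, and up to 4 members of each of 33 lists by p. Other list members were named after their values were seen, and some genes that the rule selects are not reported here. Members and lists were chosen with earlier results of these data known.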

Additional observations from a re-analysis of the deposited data

How the results depend on the processing

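Precision is limited by having only 2 control libraries, by the wide spread between libraries of both groups, and by counts for the lowest genes. More than 1 log2 unit separated 1600 genes between the controls and 1267 to 1723 genes between pairs of knockouts. The count of genes called was 0 in the 5-library edgeR fit and also with all 11 libraries, limma-voom, RLE or upper-quartile factors, library totals and a minimum of 1 CPM in 3 libraries. It was 3 against the 5 floxed controls of both lines, 14 with DESeq2 and 2 without a filter on low counts (the pseudogene models Gm12191 and Rpl30-ps9). Leaving out 1 knockout library gave 0 to 1, the 1 being Gm13394 without ZEB1 knockout 2. These models were named after their values were seen. At an unadjusted p under 0.05 in edgeR there were 168 genes without knockout 1, 739 without knockout 2 and 139 without knockout 3. With all 5 libraries there were 248. The replicate number as a block gave 0 calls, with 467 genes at an unadjusted p under 0.05. Only the numbers 2 and 3 occur in both groups, so the numbers were not taken as pairing. Their deviations from the group means correlated at 0.49 (number 2) and 0.18 (number 3), and those of control 3 and knockout 1 at 0.33. With 2 controls the deviations of one mirror those of the other, so these correlations cannot decide on pairing. The difference between ZEB1 and ZEB2 effects gave 0 calls under its 4 alternatives, the replicate block within each line included, where 2076 genes had an unadjusted p under 0.05.

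For 61 single genes, 894 of 907 recomputed fold changes kept direction and side of the threshold, 10 passed it and 3 turned. The turned ones were Zeb2, at -0.12 against the 5 floxed controls and -0.0083 without control 3, and Cdh1, at 0.22 without knockout 3. Leaving out 1 library gave Zeb2 -0.0083 to 0.13 and Cdh1 -0.64 to 0.22. For 33 list medians, 455 of 494 stayed within 1 pooled SD between libraries of a group and 39 moved by more. Other scalings placed the median of all genes between -0.04 and 0.01.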
